A study of Homo sapiens with 72 samples.

Results

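Heme oxygenase 1 (HMOX1) and 7 further genes of heme turnover were followed across a dose series of omaveloxolone in human skin fibroblasts. The 8 genes, HMOX1, HMOX2, BLVRA, BLVRB, SLC48A1, FECH, ABCB6 and ALAS1, were picked by symbol as genes that degrade, carry or make heme, from 23170 genes counted. All 8 were among the 14264 genes that passed the filter on low counts. The cells were normal human dermal fibroblasts of wildtype genotype, bought as primary cells and seeded at 1250 cells per well of a 384-well plate. They were held for 24 hours with omaveloxolone, a synthetic triterpenoid that activates the transcription factor NRF2 by binding its inhibitor KEAP1, or with the solvent DMSO. Omaveloxolone was given at 0.0005, 0.002, 0.005, 0.014, 0.04, 0.12, 0.37, 1.11, 3.33 or 10 µM in 4 wells each, and 32 wells received DMSO. RNA was counted by DRUG-seq, which reads the barcoded 3′ ends of polyadenylated RNA in well lysates. All wells held the same cells, so p-values measure the spread between wells, which may be technical.

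Heme oxygenases open the heme ring and release biliverdin, carbon monoxide and iron. HMOX1 is the inducible enzyme, a long known marker of oxidant and ultraviolet A stress in skin fibroblasts, and HMOX2 is the largely constitutive one. Biliverdin reductases A and B (BLVRA, BLVRB) reduce biliverdins to bilirubins, SLC48A1 (HRG1) carries heme out of lysosomes, and heme is built in a pathway that ALAS1 opens and FECH closes inside mitochondria. HMOX1 transcription is activated by NRF2 and repressed by BACH1, a factor that leaves the DNA when it binds heme.

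The main pattern was a rise of HMOX1 from 0.014 µM upward to a plateau at 0.37 and 1.11 µM, joined by SLC48A1 and BLVRB from 0.04 µM and by ALAS1 from 0.12 µM. HMOX2 and BLVRA passed this test at no dose up to 0.37 µM. At 1.11 µM HMOX1 and ALAS1 stayed above DMSO, while BLVRB and HMOX2 were below it. Changes are log2 differences from DMSO with their standard error (SE), from the quasi-likelihood test of edgeR fitted to all 72 wells. A gene is called where the Benjamini-Hochberg adjusted p over all 14264 genes is under 0.05. Levels are given in CPM, which puts every library on an equal total, with TMM scaling, a correction for library composition.

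Counting depth set the precision. Total counts per well lay between 4173820 and 8750002 in DMSO and in all doses up to 0.12 µM. They were 9311006 to 10386930 at 0.37 µM, 1432737 to 1709990 at 1.11 µM, 132318 to 208739 at 3.33 µM and 25637 to 39396 at 10 µM. Fewer cells in a well and less RNA per cell cannot be told apart in such data. All 7 fibroblast markers (COL1A1, COL1A2, DCN, LUM, PDGFRB, THY1 and VIM) were present, and their summed level ranged over 33571 to 37634 CPM at 0.37 µM, and over 66033 to 78442 at 1.11 µM, against 66272 to 79587 CPM in DMSO. The share of counts on mitochondrially encoded genes averaged 0.0428% at 0.37 µM and 0.0211% at 1.11 µM, against 0.955% in DMSO. The part of these shifts in the results below was not tested. Each dose had its own plate columns in plate rows K and L, so dose and plate column cannot be told apart, and the 32 DMSO wells lay in columns 2 and 23 of all plate rows.

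**Figure D1:**
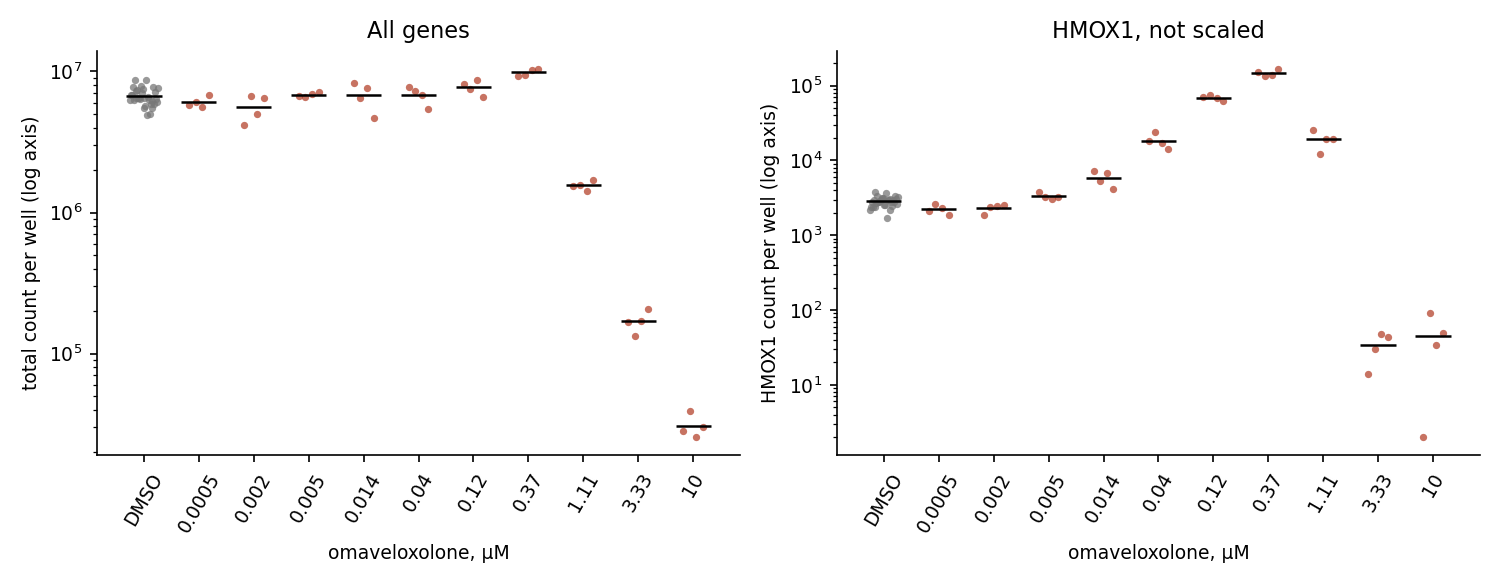
Total count per well over all genes (left) and unscaled HMOX1 count per well (right), both on log axes, in DMSO and at each dose of omaveloxolone in µM; points are wells and bars are means. Totals at 10 µM lay between 25637 and 39396, and HMOX1 counts there between 2 and 92.

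HMOX1 (chr22:35380361-35394214, plus strand, GRCh38, GENCODE release 29), the inducible heme oxygenase, was the member with the largest change. In the 32 DMSO wells it ranged from 296 to 593 CPM, with a median of 436 CPM. The 4 wells held 403, 450, 447 and 272 CPM at 0.0005 µM, 490, 365, 517 and 407 CPM at 0.002 µM, and 585, 508, 464 and 471 CPM at 0.005 µM. These wells overlapped the DMSO wells. At 0.014 µM the wells held 899, 896, 918 and 976 CPM, all above the highest DMSO well. At 0.04 µM they held 2550, 3617, 2689 and 2859 CPM. At 0.12 µM they held 9272, 11132, 8299 and 10571 CPM. The wells of these 3 doses did not overlap one another or DMSO. The level was 17348, 14983, 14291 and 17039 CPM at 0.37 µM, which is 1.36% to 1.63% of all counts in those wells. It was 19747, 9195, 16204 and 13008 CPM at 1.11 µM, a range that enclosed that of 0.37 µM. The wells at 1.11 µM split by plate column, with 19747 and 16204 CPM in column 15 and 9195 and 13008 CPM in column 5.

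**Figure D2:**
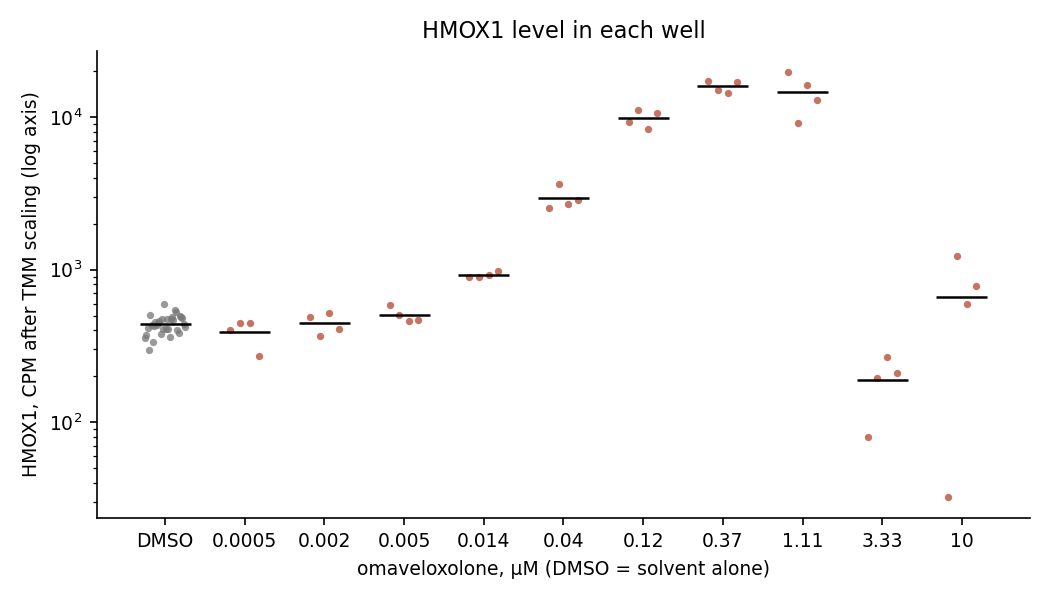
HMOX1 level in each well, in CPM after TMM scaling on a log axis, in DMSO and at each dose of omaveloxolone in µM; points are wells and bars are means. The wells climbed from 0.014 µM to means of 15915 CPM at 0.37 µM and 14538 CPM at 1.11 µM, and those at 3.33 µM lay below every DMSO well.

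Against DMSO, HMOX1 did not pass the test at 0.0005, 0.002 or 0.005 µM (edgeR, log2 change -0.16 ± 0.18, 0.02 ± 0.17 and 0.21 ± 0.17; adjusted p = 1 at each). It rose by 1.07 ± 0.16 at 0.014 µM (edgeR, adjusted p = 4.17e-06), the lowest dose at which any member was called. With only the 4 DMSO wells that share plate rows K and L as controls, the change at 0.014 µM was 1.19 and did not pass (edgeR, adjusted p = 0.451). At 0.04 and 0.12 µM the rise was 2.74 ± 0.14 and 4.48 ± 0.13, and at 0.37 and 1.11 µM it was 5.18 ± 0.13 and 5.05 ± 0.13 (edgeR, adjusted p = 1.54e-27, 4.57e-44, 5.54e-49 and 7.12e-49). The last 2 correspond to 36.2-fold and 33.1-fold.

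Steps between neighbouring doses show where the level moved. By edgeR 0 genes were called at 0.002 against 0.0005 µM, 0.005 against 0.002 µM or 0.014 against 0.005 µM (0.0% of genes tested in each), where 609, 566 and 500 genes had an unadjusted p under 0.05. DESeq2's Wald test called 0, 0 and 4 genes in these steps. HMOX1 was 1 of those 4 (0.86, adjusted p = 0.0165). HMOX1 was the single gene that edgeR called at 0.04 against 0.014 µM (0.00701% of genes), with a rise of 1.67 ± 0.24 (edgeR, adjusted p = 1.26e-05). It was 1 of 2 genes called at 0.12 against 0.04 µM (0.014% of genes), with a rise of 1.75 ± 0.24 (edgeR, adjusted p = 3.15e-06). DESeq2's Wald test called 11 genes higher and 3 lower in the first of these steps, and 3 higher and 18 lower in the second. At 0.37 against 0.12 µM, where 8.13% of genes were called, its rise of 0.70 ± 0.23 was near the threshold (edgeR, adjusted p = 0.0465) and was lost without replicate 3 or 4 (adjusted p = 0.147 and 0.111). At 1.11 against 0.37 µM it did not pass (-0.13 ± 0.23, edgeR, adjusted p = 0.721), among 25.4% of genes called.

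DMSO wells themselves differed by plate side. HMOX1 averaged 405 ± 49.8 CPM in column 23 and 474 ± 56.5 CPM in column 2 (SD, n = 16 each), a log2 difference of -0.24 ± 0.06 (edgeR, adjusted p = 0.00999). It was the 1 member called between the columns, where 6.14% of 11259 genes were called. The 4 DMSO wells in plate rows K and L ranged from 357 to 486 CPM.

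SLC48A1 (chr12:47753916-47782753, plus strand), the lysosomal heme exporter, rose next. In DMSO its wells ranged from 16.0 to 44.0 CPM (median 30.8). The wells held 47.1, 76.6, 51.6 and 51.4 CPM at 0.014 µM, 89.2, 64.1, 90.7 and 95.6 CPM at 0.04 µM, 101, 119, 98.9 and 124 CPM at 0.12 µM, and 127, 123, 107 and 113 CPM at 0.37 µM. All wells of these 4 doses lay above the highest DMSO well. The change at 0.014 µM was 0.86 ± 0.25 and did not pass across all genes (edgeR, adjusted p = 0.301). SLC48A1 rose by 1.44 ± 0.24 at 0.04 µM, 1.83 ± 0.23 at 0.12 µM and 1.91 ± 0.23 at 0.37 µM (edgeR, adjusted p = 3.49e-05, 1.07e-08 and 2.15e-10). At 0.12 µM its mean in linear CPM had covered 92.4% of the distance between the DMSO mean and the 0.37 µM mean, where HMOX1 had covered 60.6%. On the log2 scale the 2 genes were closer, with 1.83 of 1.91 for SLC48A1 and 4.48 of 5.18 for HMOX1. At 1.11 µM the SLC48A1 wells split by plate column, as did those of HMOX1, BLVRA and FECH. The wells of BLVRB, HMOX2 and ALAS1 did not. SLC48A1 held 64.9 and 73.0 CPM in replicates 1 and 3 (column 15) and 23.1 and 19.0 CPM in replicates 2 and 4 (column 5). Its change at 1.11 µM did not pass against DMSO (0.52 ± 0.28, edgeR, adjusted p = 0.17), and the fall against 0.37 µM was 1.39 ± 0.38 on the log2 scale (edgeR, adjusted p = 0.0036). Against the 4 DMSO wells in the treated plate rows alone, the 0.04 and 0.12 µM rises were 1.19 and 1.57 and did not pass (edgeR, adjusted p = 0.934 and 0.153). HDAC7 covers the 3′ end of SLC48A1 on the opposite strand over 32 bases, and averaged 36.0 CPM at 0.37 µM and 68.3 CPM in DMSO.

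BLVRB (chr19:40447765-40465840, minus strand), a flavin and biliverdin IX-beta reductase, changed in both directions. It ranged from 107 to 166 CPM in DMSO (median 133). Its wells held 202, 222, 191 and 235 CPM at 0.04 µM and 216, 261, 226 and 244 CPM at 0.12 µM. They held 492, 581, 586 and 472 CPM at 0.37 µM and 55.6, 45.5, 82.3 and 64.5 CPM at 1.11 µM. All wells at 0.04, 0.12 and 0.37 µM lay above every DMSO well, and all wells at 1.11 µM lay below every DMSO well. BLVRB rose by 0.66 ± 0.16 at 0.04 µM, 0.82 ± 0.16 at 0.12 µM and 1.99 ± 0.15 at 0.37 µM (edgeR, adjusted p = 0.0184, 0.000344 and 1.31e-19). The step at 0.37 against 0.12 µM was 1.17 ± 0.23 (edgeR, adjusted p = 0.000196). At 1.11 µM it fell by 1.11 ± 0.20 against DMSO and by 3.10 ± 0.26 against 0.37 µM (edgeR, adjusted p = 1.34e-05 and 1.27e-16). The 0.04 µM call was lost without replicate 4 (edgeR, adjusted p = 0.131) and with TMM scaling on abundant genes (0.0553). Against the 4 DMSO wells in the treated plate rows alone, neither the 0.04 µM nor the 0.12 µM rise passed (edgeR, adjusted p = 1 and 0.799).

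BLVRA (chr7:43758680-43807342, plus strand), the main biliverdin reductase of adults, was called at no dose against DMSO by edgeR over all 72 wells with TMM over all genes. Its wells ranged from 64.8 to 156 CPM in DMSO, and held 151, 137, 110 and 167 CPM at 0.12 µM, 113, 105, 128 and 139 CPM at 0.37 µM and 130, 85.7, 132 and 59.7 CPM at 1.11 µM. The ranges overlapped DMSO. The log2 change was 0.50 ± 0.23 at 0.12 µM, 0.28 ± 0.23 at 0.37 µM and 0.03 ± 0.25 at 1.11 µM (edgeR, adjusted p = 0.343, 0.42 and 0.952). The 95% interval at 0.37 µM ran from -0.18 to 0.74, so a rise as large as that of BLVRB at 0.37 µM lay outside it. DESeq2's Wald test called BLVRA higher at 0.37 µM (0.53, adjusted p = 0.0126). At 0.12 µM edgeR called it higher with that dose and DMSO fitted alone (0.50, adjusted p = 0.0139) and without the 3.33 and 10 µM wells (0.50, adjusted p = 0.0264).

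HMOX2 (chr16:4474690-4510347, plus strand), the constitutive heme oxygenase, ranged from 23.5 to 57.7 CPM in DMSO. It held 33.9, 42.3, 32.9 and 53.9 CPM at 0.04 µM, 45.1, 40.7, 35.8 and 42.1 CPM at 0.12 µM, and 52.6, 47.7, 37.4 and 47.7 CPM at 0.37 µM. All these wells lay within the DMSO range. Its change at 0.37 µM was 0.38 ± 0.31, with a 95% interval from -0.23 to 0.98 (edgeR, adjusted p = 0.407), while DESeq2's Wald test called it higher (0.63, adjusted p = 0.0267). At 1.11 µM the wells held 0.773, 23.8, 10.9 and 5.43 CPM, from 1, 32, 13 and 8 counts. HMOX2 fell by 1.80 ± 0.41 there (edgeR, adjusted p = 0.000531), with 3 of 4 wells below every DMSO well. NMRAL1 overlaps HMOX2 on the opposite strand over 21074 bases but does not cover its 3′ end, and whether counting used strand is not given in the sources used here.

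**Figure D3:**
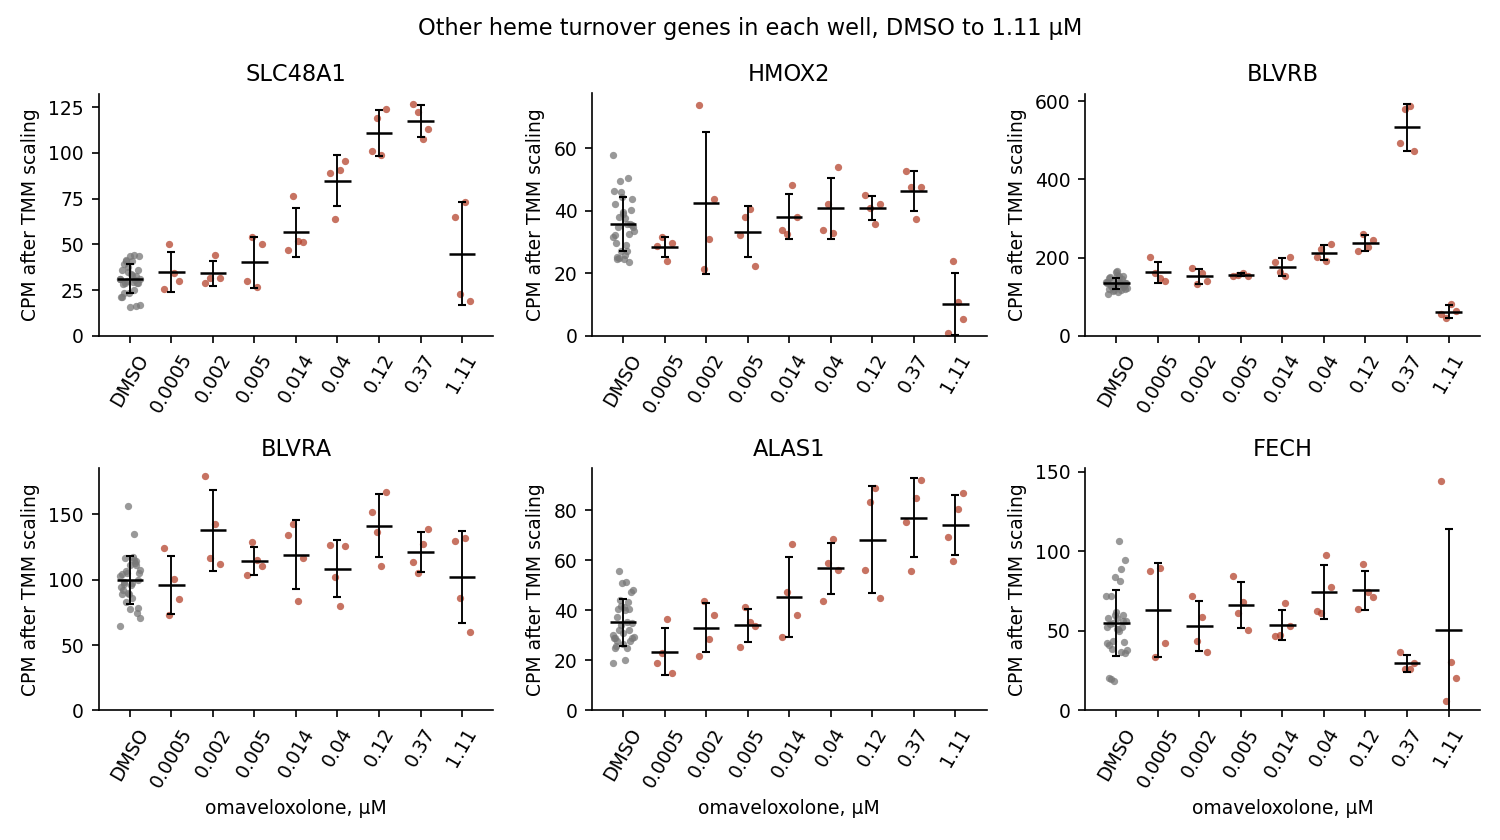
Level of 6 heme turnover genes in each well, in CPM after TMM scaling, in DMSO and at 8 doses of omaveloxolone up to 1.11 µM; points are wells, horizontal bars are means and vertical bars are SD, drawn down to 0 at most. SLC48A1 levelled near 111 and 117 CPM at 0.12 and 0.37 µM, BLVRB stood at 533 CPM at 0.37 µM and lower than in DMSO at 1.11 µM, and HMOX2 averaged 10.2 CPM at 1.11 µM.

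ALAS1 (chr3:52198086-52214327, plus strand), the first and rate-limiting enzyme of heme synthesis outside red cells, rose at 0.12, 0.37 and 1.11 µM, by less than HMOX1. It ranged from 18.8 to 55.6 CPM in DMSO (median 33.2). Its wells held 43.7, 58.8, 68.6 and 56.3 CPM at 0.04 µM, and 56.1, 83.4, 89.1 and 44.8 CPM at 0.12 µM, with 3 of 4 wells above every DMSO well at each dose. They held 75.4, 55.8, 85.1 and 92.2 CPM at 0.37 µM and 69.6, 59.6, 80.6 and 86.9 CPM at 1.11 µM, and all 8 of these wells lay above every DMSO well. The change at 0.04 µM was 0.69 ± 0.23 and did not pass (edgeR, adjusted p = 0.259). ALAS1 rose by 0.96 ± 0.23 at 0.12 µM, 1.13 ± 0.22 at 0.37 µM and 1.08 ± 0.24 at 1.11 µM (edgeR, adjusted p = 0.00606, 4.62e-05 and 0.000319). The 0.12 µM call was lost without replicate 2 or 3 (edgeR, adjusted p = 0.0559 and 0.088) and against the 4 DMSO wells in the treated plate rows alone (1.25, adjusted p = 0.333). Over 16 alternative fits ALAS1 was called in 11 at 0.12 µM, in 15 at 0.37 µM and in 15 at 1.11 µM.

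FECH (chr18:57548283-57586772, minus strand), ferrochelatase, inserts iron into the porphyrin ring. It ranged from 18.6 to 107 CPM in DMSO (median 53.5), and held 63.6, 92.4, 74.4 and 71.5 CPM at 0.12 µM and 36.9, 25.8, 25.8 and 29.9 CPM at 0.37 µM. The wells of 0.12 and 0.37 µM did not overlap each other, and both lay within the DMSO range. FECH fell by 1.35 ± 0.44 at 0.37 against 0.12 µM (edgeR, adjusted p = 0.043), a call lost with DESeq2 size factors (-1.06, adjusted p = 0.127) and without replicate 2, 3 or 4 (adjusted p = 0.17, 0.145 and 0.114). Against DMSO the change at 0.37 µM was -0.89 ± 0.35 and did not pass (edgeR, adjusted p = 0.0561). At 1.11 µM the wells held 145, 5.96, 30.2 and 20.4 CPM, from 187, 8, 36 and 30 counts, with 1 well above every DMSO well and 1 below. The change there was -0.13 ± 0.35 and did not pass (edgeR, adjusted p = 0.812). Over 16 alternative fits it ran from -1.56 to 0.25, and FECH was called in 1 of them. FECHP1, a pseudogene copy, could share reads with FECH.

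ABCB6 (chr2:219209766-219219017, minus strand), a membrane transporter linked to porphyrins, was near the limit of detection. It had 0 counts in 24 of 32 DMSO wells and 68 counts in all of them together. It had 0 counts in all 4 wells at 0.014, 1.11, 3.33 and 10 µM, and at most 23 counts in any treated well. It was called at no dose, and differences in ABCB6 were not detectable at this depth.

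The count of members called rose with dose against a changing background. At 0.0005, 0.002 and 0.005 µM no member was called in either direction by edgeR, where 0.00701%, 0.0561% and 0.0771% of all genes were called. Among the 8, 1, 1 and 0 had an unadjusted p under 0.05 at these doses, and DESeq2's Wald test called 0 at each. At 0.014 µM 1 of 8 members was called higher, against 0.203% of all genes, and none lower, against 0.014%. At 0.04 µM 3 of 8 were higher, against 0.603% of all genes, and none lower, against 0.189%. At 0.12 µM 4 of 8 were higher, against 1.31% of all genes, and none lower, against 1.02%. At 0.37 µM the same 4 members were higher, against 11.2% of all genes, and none lower, against 13.6%. At 1.11 µM 2 of 8 were higher, against 9.76% of all genes, and 2 of 8 lower, against 13.2%. Among the 8, 0, 0, 0 and 1 were lower at an unadjusted p under 0.05 in edgeR at 0.014, 0.04, 0.12 and 0.37 µM, and DESeq2's Wald test called 0 lower at each. That test called 6 of 8 higher at 0.37 µM, with HMOX2 and BLVRA besides the 4. Over all 13387 genes with an adjusted p in that test, it called 2668 higher and 1957 lower there. The median log2 change of the 8 members was 0.89 at 0.12 µM and 1.2 at 0.37 µM, beside -0.07 and -0.14 over all genes. Without ABCB6, which was near the limit of detection, the medians of the other 7 members were 0.82 and 1.13. The scaling moved the median over all genes at 0.37 µM to 0.11 with DESeq2 size factors, which put 63.4% of called genes above DMSO where TMM put 45.1%. The 4 members called at 0.37 µM were higher than DMSO under both.

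**Figure D4:**
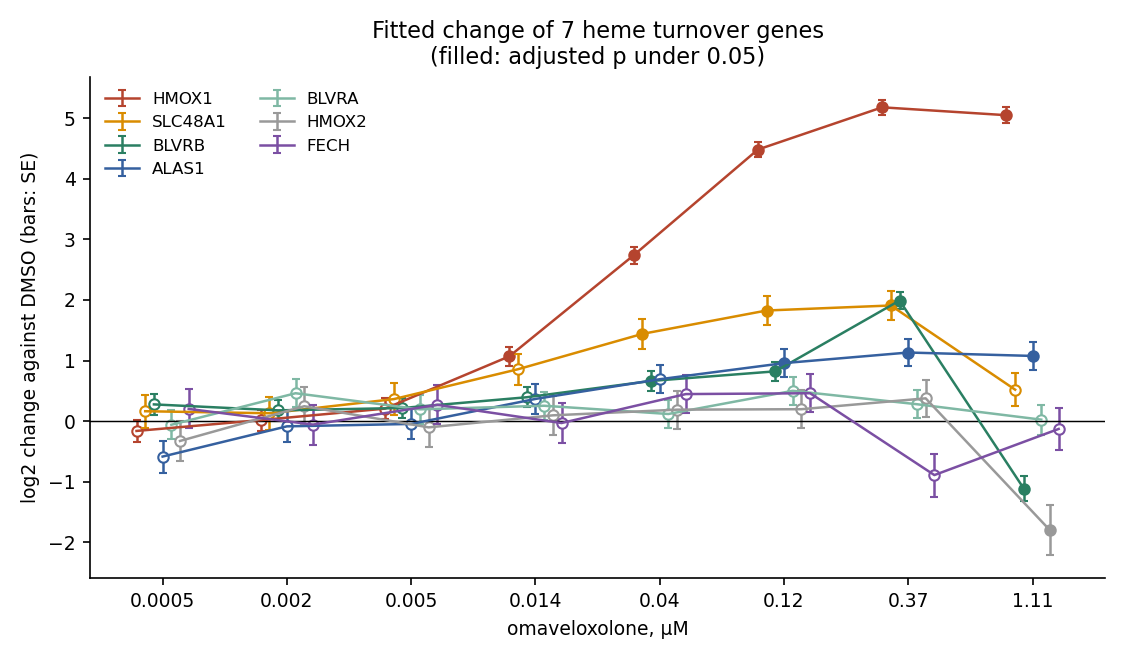
Log2 change against DMSO of 7 heme turnover genes at 8 doses of omaveloxolone, from the edgeR fit; bars are SE, filled points passed an adjusted p of 0.05 and open points did not. HMOX1 reached 5.18 at 0.37 µM, SLC48A1, BLVRB and ALAS1 reached 1.91, 1.99 and 1.13 there, and BLVRB and HMOX2 lay at -1.11 and -1.80 at 1.11 µM.

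Ratios of counts inside a well do not depend on the scaling of libraries and test whether paired members moved apart. The 3 ratios at 10 doses gave 30 exact permutation tests, two-sided and over every split of the 4 treated and 32 DMSO wells, and 14 passed after Benjamini-Hochberg adjustment. The log2 ratio of HMOX1 to HMOX2, the inducible over the constitutive oxygenase, was 4.61 ± 0.25 at 0.014 µM and 3.65 ± 0.39 in DMSO (SD, n = 4 and 32; exact permutation test, adjusted p = 0.000102). It exceeded the DMSO mean by 2.54 and 4.25 at 0.04 and 0.12 µM, and by 4.78 and 7.42 at 0.37 and 1.11 µM, with all 4 wells of each dose above every DMSO well. Each of these had p = 1.7e-05, the smallest these exact splits can give, and adjusted p = 5.66e-05. The 1.11 µM value rests on 1 to 32 HMOX2 counts per well.

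The log2 ratio of HMOX1 to ALAS1, heme breakdown over the entry to synthesis, exceeded DMSO by 0.73 at 0.014 µM (exact permutation test, adjusted p = 0.00404). The excess was 2.01 and 3.54 at 0.04 and 0.12 µM, and 4.03 and 3.89 at 0.37 and 1.11 µM, each with an adjusted p of 5.66e-05 in the exact permutation test. So the rise of HMOX1 exceeded that of ALAS1 at each of these 5 doses. The ratio also passed at 10 µM, with an excess of 1.98 (exact permutation test, adjusted p = 0.00187). There ALAS1 had 0 counts in all 4 wells, so the ratio rests on the 0.5 added to each count. Of those wells 3 lay above every DMSO well and 1 below. The log2 ratio of BLVRB to BLVRA was 2.14 ± 0.29 at 0.37 µM and 0.44 ± 0.30 in DMSO, a difference of 1.70 (SD, n = 4 and 32; exact permutation test, adjusted p = 5.66e-05). At 0.04 µM the difference was 0.55 (exact permutation test, adjusted p = 0.0029), while at 0.12 µM it was 0.32 and did not pass (0.0898). At 1.11 µM the ratio was -0.67 ± 0.57, a difference of -1.11 from DMSO (SD, n = 4; exact permutation test, adjusted p = 0.000231).

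**Figure D5:**
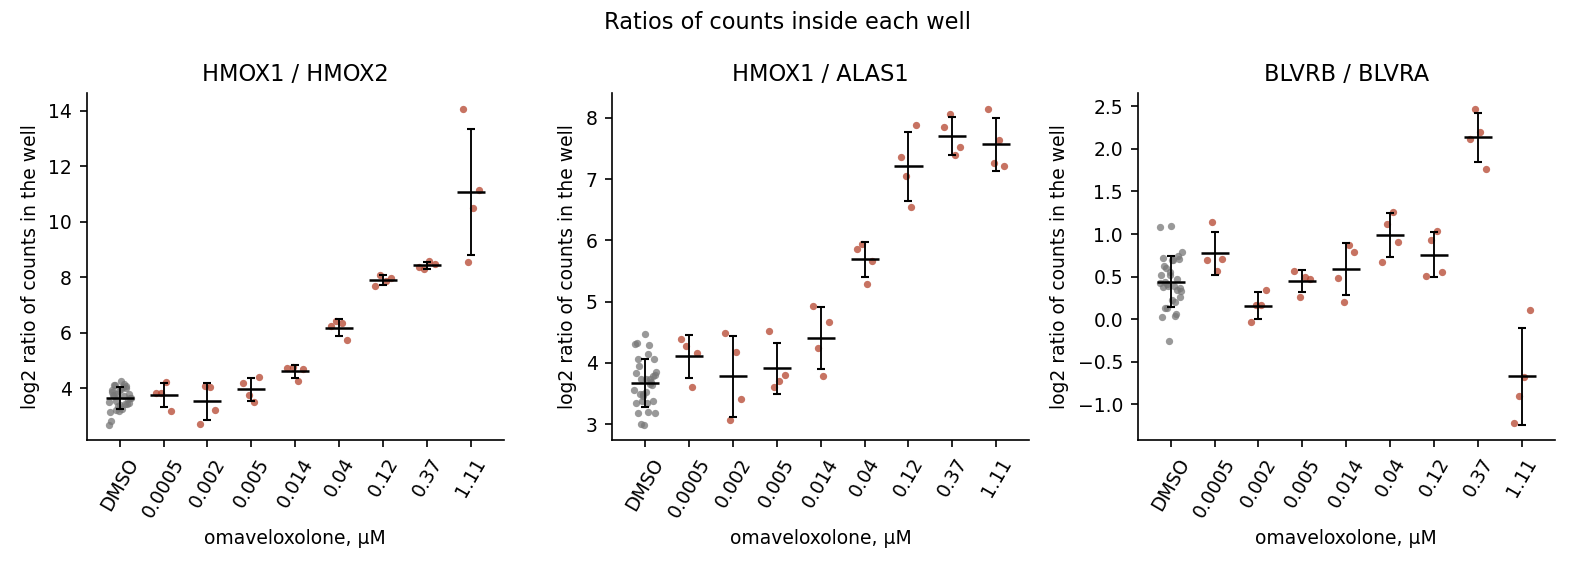
Log2 ratio of counts inside each well for 3 pairs of heme turnover genes, with 0.5 added to each count, in DMSO and at 8 doses of omaveloxolone up to 1.11 µM; points are wells, horizontal bars are means and vertical bars are SD. The ratio of HMOX1 to HMOX2 reached 8.43 at 0.37 µM, and that of BLVRB to BLVRA lay at 2.14 at 0.37 µM and -0.67 at 1.11 µM.

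Above 1.11 µM few counts of the members were left. At 3.33 µM HMOX1 held 80.2, 196, 269 and 211 CPM, from 14, 30, 48 and 44 counts, below every DMSO well. It fell by 1.21 ± 0.23 against DMSO (edgeR, adjusted p = 1.43e-05), and against 1.11 µM it fell by 6.26 (edgeR, adjusted p = 7.62e-29), where 34.7% of genes were called. At 3.33 µM 0 members were higher by edgeR, with 0 at an unadjusted p under 0.05, against 7.35% of all genes. DESeq2's Wald test called 1 member (BLVRA) higher there, and 1176 of 11199 genes in all. By edgeR 4 of 8 were lower, against 32.9% of all genes: HMOX1, BLVRB, SLC48A1 and FECH. SLC48A1 had 3 counts, all in replicate 2, which is 0.134 times its DMSO level (95% counting interval 0.0277 to 0.392). FECH had 5 counts over the 4 wells. BLVRA was called higher with TMM scaling on abundant genes (0.83, edgeR, adjusted p = 0.0137) and without replicate 2 or 4 (0.80 and 0.96, adjusted p = 0.0283 and 0.0023). BLVRB had 60 counts, and its fall of 0.67 ± 0.24 (edgeR, adjusted p = 0.0206) was lost without replicate 2, 3 or 4 (adjusted p = 0.138, 0.0814 and 0.179). ALAS1 had 25 counts and a change of -0.01 ± 0.36 (edgeR, adjusted p = 0.991).

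At 10 µM the wells held 2, 92, 34 and 50 counts of HMOX1, or 32.6, 1236, 596 and 786 CPM. Replicate 1 lay below every DMSO well and the other 3 above. The change was 0.62 ± 0.21 (edgeR, adjusted p = 0.0158), 0.25 without replicate 2 (adjusted p = 0.507) and 1.64 with TMM scaling on the 700 most abundant genes, so its size at this depth depends on the scaling. With TMM over all genes, 5 of the 8 members were called in either direction, against 35.2% of all genes. That share also depends on the scaling: it was 19.3% with TMM scaling on abundant genes and 20.7% with DESeq2 size factors. By TMM over all genes 5 members differed at 10 against 3.33 µM, where 20.8% of genes were called. HMOX2 had 21 of its 24 counts in replicate 4, and its change of 1.39 turned to -1.14 without that well (edgeR, adjusted p = 0.0134 and 0.28). BLVRB had 19 counts, and its change of -0.89 turned to 0.12 with scaling on abundant genes (edgeR, adjusted p = 0.0263 and 0.823). ALAS1 and FECH had 0 counts in all 4 wells, where 3 counts would be 24.3 CPM without TMM scaling. Their DMSO levels on that scale were 34.3 and 53.0 CPM, so ALAS1 was at least 1.41-fold lower and FECH at least 2.18-fold lower. Such floors cover counting error only.

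Start-site sequences are given for the members that rose with HMOX1 and for the 2 members that hold an antioxidant response core, the sequence NRF2 binds with small MAF proteins. Windows from 250 bases before to 50 bases after the start came from RefSeq (build GRCh38.p14) for 7 of the 8 members, with 2 starts for HMOX2. HMOX1 was not analysed here in this respect. Each window was searched on both strands for TGACNNNGC (antioxidant response core), GCATGCG (core of the site of nuclear respiratory factor 1, NRF1) and CACGTG (E-box), which are in capitals below. The windows are SLC48A1 at chr12:47772988-47773287 (plus strand), BLVRB at chr19:40465696-40465995 (minus strand), ALAS1 at chr3:52197833-52198132 (plus strand), FECH at chr18:57586653-57586952 (minus strand) and ABCB6 at chr2:219218909-219219208 (minus strand).
SLC48A1: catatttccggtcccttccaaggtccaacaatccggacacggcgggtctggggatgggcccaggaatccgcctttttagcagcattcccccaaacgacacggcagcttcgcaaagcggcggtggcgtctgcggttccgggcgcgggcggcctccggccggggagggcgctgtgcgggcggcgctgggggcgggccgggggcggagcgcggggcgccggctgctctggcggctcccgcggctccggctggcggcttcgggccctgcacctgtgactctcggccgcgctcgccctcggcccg
BLVRB: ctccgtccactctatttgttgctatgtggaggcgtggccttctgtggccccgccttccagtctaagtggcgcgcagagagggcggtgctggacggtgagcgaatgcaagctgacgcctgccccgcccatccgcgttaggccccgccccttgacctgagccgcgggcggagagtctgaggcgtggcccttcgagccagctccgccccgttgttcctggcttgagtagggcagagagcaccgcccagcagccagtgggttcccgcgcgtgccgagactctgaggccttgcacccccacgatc
ALAS1: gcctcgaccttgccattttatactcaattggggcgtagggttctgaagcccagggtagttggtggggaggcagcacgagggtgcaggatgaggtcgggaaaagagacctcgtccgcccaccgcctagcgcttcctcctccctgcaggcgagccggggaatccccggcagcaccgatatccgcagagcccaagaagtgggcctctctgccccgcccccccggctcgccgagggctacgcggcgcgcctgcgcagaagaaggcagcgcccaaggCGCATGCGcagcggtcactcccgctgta
FECH: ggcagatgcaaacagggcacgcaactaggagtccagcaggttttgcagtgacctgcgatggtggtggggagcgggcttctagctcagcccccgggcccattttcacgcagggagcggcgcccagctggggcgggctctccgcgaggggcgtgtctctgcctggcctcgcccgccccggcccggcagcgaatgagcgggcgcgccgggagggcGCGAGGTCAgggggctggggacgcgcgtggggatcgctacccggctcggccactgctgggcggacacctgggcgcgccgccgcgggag
ABCB6: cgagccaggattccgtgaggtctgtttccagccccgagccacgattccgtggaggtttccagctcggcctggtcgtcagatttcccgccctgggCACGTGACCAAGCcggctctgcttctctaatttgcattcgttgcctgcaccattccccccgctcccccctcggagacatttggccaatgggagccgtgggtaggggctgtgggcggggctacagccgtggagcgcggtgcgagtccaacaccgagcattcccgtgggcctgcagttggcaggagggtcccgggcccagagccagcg

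The windows of SLC48A1, BLVRB and BLVRA held none of the 3 motifs. ALAS1 held the NRF1 core on both strands at overlapping positions, 23 to 29 on its own strand and 22 to 28 on the other, counted from the start base as 0. That core was present in 3.91% of 35116 RefSeq windows of the same length. FECH held an antioxidant response core on the opposite strand at -38 to -30, and ABCB6 held one at -152 to -144 that shares bases with an E-box at -156 to -151. The core is present in 13.3% of all windows and the E-box in 7.26%. HMOX2 held an E-box at -28 to -23 of its upstream start. A match is a description of the letters in the window and not a binding site, and a window without a match may have one elsewhere.

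Genes whose profile was most like that of HMOX1 were ranked by Pearson's r of mean log2 CPM over 9 conditions, DMSO and the 8 doses up to 1.11 µM, among 8096 genes with a mean of at least 10 CPM. All conditions share the plate and their libraries' composition. The 5 highest were TIPARP (r = 0.967), MAFG (0.964), BTF3 (0.963), SERPINB2 (0.959) and YWHAQ (0.956). Likeness is of shape and not size: MAFG averaged 167 CPM at 0.37 µM and 35.4 CPM in DMSO, and BTF3 averaged 2043 and 1681 CPM. Without 1.11 µM, over 8 conditions, the 5 highest were PTGR1, GCLM, HINT1, SERPINB2 and NMB, so 1 of 5 names was shared. Among the members, ALAS1 was most like HMOX1 (r = 0.953), followed by SLC48A1 (0.728), BLVRB (0.235), BLVRA (0.192), HMOX2 (-0.30) and FECH (-0.47). Over the 8 conditions without 1.11 µM, SLC48A1 was the member most like HMOX1 (0.977), followed by ALAS1 (0.943), BLVRB (0.893) and HMOX2, whose r turned positive (0.814). The 3 genes most like ALAS1 over 9 conditions were POR (r = 0.985), HMOX1 (0.953) and SLC7A5 (0.943). Without 1.11 µM they were ZFAND5 (0.984), POR (0.982) and HIPK2 (0.981).

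Other genes of the heme pathway were read from a wider list. Of 27 further listed genes of heme synthesis, transport, binding and ALAS1 turnover, 26 were counted and 24 passed the filter, and ALAS2 was not analysed here. None was called at 0.014 µM or below by edgeR or DESeq2's Wald test, with 1 at an unadjusted p under 0.05 at each dose in edgeR, and 1 was called at 0.04 and at 0.12 µM. That gene was HEBP1, a heme-binding protein, which averaged 370 ± 42.5 CPM at 0.04 µM, 503 ± 79.9 CPM at 0.12 µM and 729 ± 94.1 CPM at 0.37 µM, against 224 ± 31.3 CPM in DMSO (SD, n = 4 per dose and 32). All 4 wells of each of these doses lay above every DMSO well, and the rise at 0.37 µM was 1.70 ± 0.15 (edgeR, adjusted p = 3.74e-16). At 1.11 µM HEBP1 averaged 220 ± 27.6 CPM and did not pass (edgeR, adjusted p = 0.942).

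At 0.37 µM 5 of the 24 were higher and 3 lower, against 11.2% and 13.6% of all genes, with a median log2 change of 0.01 beside -0.14 over all genes. SLC25A38, the mitochondrial glycine carrier that feeds ALAS, averaged 123 ± 25.0 CPM at 0.37 µM and 27.0 ± 8.74 CPM in DMSO (2.19 ± 0.28, edgeR, adjusted p = 1.09e-09). PGRMC1, a heme-binding membrane protein, rose by 1.08 ± 0.19, and LONP1, a mitochondrial protease that degrades ALAS1, by 1.06 ± 0.28 (edgeR, adjusted p = 4.99e-06 and 0.00208). POR, the reductase that gives electrons to heme oxygenases and cytochromes P450, averaged 34.8 ± 6.64 CPM at 0.37 µM and 19.5 ± 7.38 CPM in DMSO (0.84 ± 0.30, edgeR, adjusted p = 0.0328). Only 1 of its 4 wells at 0.37 µM lay above every DMSO well. Lower were LRP1, an uptake receptor for heme bound to hemopexin (-1.45 ± 0.30), ALAD, the second enzyme of heme synthesis (-1.31 ± 0.44), and PGRMC2, a heme chaperone (-1.01 ± 0.21; edgeR, adjusted p = 7.53e-05, 0.0212 and 0.000141). The ALAD call was lost with DESeq2 size factors (edgeR, adjusted p = 0.0596).

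At 1.11 µM 5 of the 24 were higher and 4 lower, against 9.76% and 13.2% of all genes, and LRP1 had turned to a rise of 0.80 ± 0.25 (edgeR, adjusted p = 0.0118). Of the regulators, NFE2L2, which encodes NRF2, rose by 0.88 ± 0.19 at 0.37 µM (edgeR, adjusted p = 0.000188). BACH1 averaged 94.0 ± 18.1 CPM at 0.37 µM and 67.7 ± 18.3 CPM in DMSO and did not pass (0.47 ± 0.25, edgeR, adjusted p = 0.161), whereas with DESeq2 size factors it did (0.73, adjusted p = 0.02). The macrophage list (PTPRC, CD14, CD163, CD68 and CSF1R) had a median summed level of 94.1 CPM at 0.37 µM and a range of 205 to 417 CPM at 1.11 µM, against 93.0 to 184 CPM in DMSO. PTPRC and CSF1R, which define blood cells and macrophages, had 0 counts in all wells at 1.11 µM. The list went both ways, with 3 genes averaging at least 1 CPM at 1.11 µM and 2 in DMSO. CD163 was called higher at 1.11 against 0.37 µM by edgeR. Wells at 1.11 µM held fewer counts than DMSO wells, so these zeros cannot exclude such cells.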

How the data were processed

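The deposited values were raw counts per gene and well, for which the authors used kallisto, bustools and GRCh38, per the submitters' processing notes. Versions, annotation, strand setting and any collapsing of molecular identifiers are not given in the sources used here, so a count may be a read. All 72 wells matched a sample. All 32 wells labelled DMSO were used, although the protocol speaks of 16 on a plate. Of 23170 genes, 23078 matched GENCODE release 29. 1 row, a processed pseudogene, was left out of totals and tests and put back as an alternative. The fit used edgeR 4.0.16 in R 4.3.3 (TMM, filterByExpr with a minimum count of 10, robust dispersion) over all wells, with Benjamini-Hochberg adjustment within each comparison. CPM were computed after TMM scaling. A test on simulated data showed that TMM over all genes fails at the depth of the 10 µM wells, so scaling on 700 genes with a mean of at least 200 CPM was added as an alternative after seeing the data. Ratios used Python 3.11.15 with SciPy 1.17.1. DESeq2 1.42.0 supplied other size factors and a Wald test. Members and gene lists were chosen with earlier results of these data known. All members are named, with the heme genes of largest change among those called at 0.37 µM (up to 4 in each direction), POR, and the genes of highest r. PTPRC, CSF1R and other markers serve only to check cell type, and KRT5, KRT14, KRT1 and TYR were not analysed here. An erythroid marker list is not reported here.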

Additional observations from a re-analysis of the deposited data

Results flagged for a closer look

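Of 74 groups of 4 wells that were examined for a well far from the other 3, 7 had one. For normally distributed values about 1 in 20 groups would. A group with counts in 1 well alone is flagged whatever its count, so 7 of 74 cannot be compared with that rate. Most of the 7 rested on few counts. At 10 µM HMOX2 stood at 330 CPM in replicate 4 (21 counts), with the others between 0 and 40.3 CPM. BLVRB at 10 µM stood at 215 CPM in replicate 2 (16 counts), with the others between 0 and 31.4 CPM. SLC48A1 at 10 µM stood at 148 CPM in the same well (11 counts), with the others between 0 and 17.5 CPM. SLC48A1 at 3.33 µM was counted in replicate 2 alone, at 19.6 CPM from 3 counts. ABCB6 was counted in a single well at 0.005 µM (1.31 CPM, replicate 4) and at 0.04 µM (3.26 CPM, replicate 3). The flag with the deepest counts was SLC48A1 at 0.014 µM, where replicate 2 held 76.6 CPM from 451 counts and the others 47.1 to 51.6 CPM. All 4 of those wells lay above the highest DMSO well.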

How the results depend on the processing

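HMOX1 passed at 0.04, 0.12, 0.37 and 1.11 µM under all 16 alternatives run, with log2 changes of 2.62 to 2.90, 4.41 to 4.64, 5.14 to 5.44 and 4.85 to 5.21. BLVRB and SLC48A1 passed at 0.37 µM under all 16 too. Depth limits every value at 3.33 and 10 µM, and ABCB6 at every dose.

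Calls were lost in the fits with fewer control wells. These fits changed the number and the plate position of the controls together, and the part of each was not tested. Against the 4 DMSO wells in the treated plate rows K and L alone, HMOX1 was 1.19 at 0.014 µM and 0.76 at 10 µM and did not pass. There 0, 1, 1 and 2 members were called at 0.014, 0.04, 0.12 and 10 µM, against 0.03%, 0.135%, 0.36% and 28.5% of all genes. Of the other heme genes 0, 0, 5 and 0 were called at 0.04, 0.12, 0.37 and 1.11 µM, against 0.135%, 0.36%, 9.23% and 7.36%. With plate row as a covariate in rows K and L, HMOX1 was 1.19, 0.76 and 0.71 at 0.014 µM, 10 µM and 0.37 against 0.12 µM and did not pass. In that fit 0, 1, 1 and 2 members were called at 0.014, 0.04, 0.12 and 10 µM, against 0.0225%, 0.127%, 0.352% and 28.1% of all genes. With the replicate block, HMOX1 was 1.14 at 0.014 µM, 0.70 at 10 µM, 1.66 at 0.04 against 0.014 µM and 0.71 at 0.37 against 0.12 µM and did not pass. With it 0, 1, 1, 1 and 2 members were called at 0.014, 0.04, 0.12, 1.11 and 10 µM, against 0.03%, 0.127%, 0.352%, 5.96% and 27.6% of all genes. Replicate numbers do not pair the wells: same-numbered wells deviated with correlations of -0.05 to 0.05, and 25.3% matched their own number best. This block kept 4 DMSO wells, so fewer samples entered it. With the 0.0005 µM wells as control, 1 member was called at 0.04 µM, against 0.217% of all genes.

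At 0.014 µM 3 members were called without the 3.33 and 10 µM wells, against 0.393% of all genes in either direction. With that dose and DMSO fitted alone 3 were called, against 0.666%. The DESeq2 Wald test called 2, against 0.616% of the genes with an adjusted p. The edgeR fit over all wells called 1 member there, against 0.217%, so the share of all genes called was also larger in these settings. HMOX1 at 0.014 against 0.005 µM passed without the 3.33 and 10 µM wells (0.86) and by the DESeq2 Wald test (0.86). HMOX1 at 0.37 against 0.12 µM did not pass with no filter (0.71), where more genes were tested. BLVRB at 10 µM turned to 0.12 with TMM of abundant genes and 0.015 by the DESeq2 Wald test, and HMOX2 at 10 µM ran from -1.14 to 1.92 over the fits that leave out a replicate, the lowest without replicate 4; the cause was not tested. Leaving out each replicate in turn gave HMOX1 0.25 to 1.14 at 10 µM and 0.63 to 0.80 at 0.37 against 0.12 µM, and 2 to 5 members called at 10 µM, against 26.7% to 28.2% of all genes. It gave differences of log2 ratios of -1.72 to 0.19 for HMOX1 to ALAS1 at 3.33 µM and 0.34 to 0.60 at 0.0005 µM, -0.66 to 0.69 for HMOX1 to HMOX2 at 3.33 µM and -1.51 to 0.013 for BLVRB to BLVRA at 3.33 µM.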
